A study of Mus musculus with 4 samples.

Results

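Glutathione and NADPH redox genes keep the cytoplasm of a cell in a reduced state, and 10 of them were followed here in late two-cell mouse embryos that had been cultured with a MYC inhibitor or with its solvent. They are Slc7a11, Gclc, Gclm, Gss, Gsr, Gpx1, Gpx4, Txnrd1, Nqo1 and G6pdx, matched by symbol, and they make up 10 of the 24411 genes listed in each library. The set was chosen by pathway and with the measured differences between inhibitor-treated and control embryos already known, since the opposite directions of Gclc and G6pdx in that comparison were part of the choice. The differences of these 10 genes are therefore given as descriptions, without p-values. Members that passed a threshold of a test are only counted beside the share of all genes, and nothing is read from those counts.

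Polyadenylated RNA was sequenced from embryos of the ICR strain, produced by in vitro fertilization and collected at 36 h post-insemination (hpi). Control embryos were cultured with DMSO, and treated embryos with 6 µM of 10074-G5, a small molecule that binds MYC and hinders its pairing with MAX. The treatment began at the one-cell stage, at 3 hpi in the sample labels and at 6 hpi in the series description. Each group had 2 libraries, each made from a pool of 10 whole embryos, so the values are averages over embryos and cells.

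Glutathione is a small thiol built from glutamate, cysteine and glycine. Slc7a11 imports cystine, the oxidized form of cysteine. GCLC, the catalytic subunit, and GCLM, the modifier subunit, together carry out the first and rate-limiting step of synthesis, and GSS carries out the last. Glutathione peroxidases such as GPX1 and GPX4 use glutathione to remove peroxides, and GSR returns the oxidized form to the reduced one with electrons from NADPH. TXNRD1 does the same for thioredoxin, NQO1 reduces quinones, and G6PDX, the first enzyme of the pentose phosphate pathway, supplies NADPH for such reactions. In the mouse, oocytes lay down much of the glutathione that the embryo uses in its first divisions, and several of these genes are textbook targets of the transcription factor NRF2.

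The libraries held between 18206584 and 20718690 expected counts, RSEM's estimate of fragments per gene. Levels between libraries are given below as CPM, counts scaled to library size with TMM factors, and levels between genes as FPKM, which also divides by transcript length. Differences are given as log2FC, the fitted log2 fold change of inhibitor-treated over control embryos, in CPM. DMSO replicate 1 stood apart. It differed by over 2-fold from DMSO replicate 2 for 42.2% of 13549 tested genes, against 20.6% between the treated replicates. DMSO replicate 2 was closer to the treated libraries than to DMSO replicate 1. It differed by over 2-fold from treated replicates 1 and 2 for 28.2% and 22.9% of tested genes. The difference of each member is given also without DMSO replicate 1. The 8 maternal oocyte markers summed to 879 and 2109 FPKM in the control libraries and to 4430 and 3632 FPKM in the treated ones, and the 6 listed of 8 two-cell markers to 485 and 1266 FPKM against 1515 and 1524 FPKM. Oosp1 made up most of the oocyte sum, and the other 7 markers summed to 323 and 537 FPKM in control and 739 and 715 FPKM in treated libraries. Within these lists Zp3 went the other way, from 205 and 75.1 to 59.0 and 65.1 FPKM, as did Eif1a of the two-cell list, from 183 and 107 to 79.1 and 63.9 FPKM. Tdpoz4, Zscan4c and Usp17la of the two-cell list overlapped between the groups. They had 79.8, 252 and 26.9 FPKM in DMSO replicate 2, above their lower treated values of 76.25, 250 and 24.3 FPKM. The sums follow the same order over libraries as several redox genes, and their part in the results was not tested. In pools of whole embryos, fewer embryos or cells with a transcript and less of it per cell cannot be told apart. The 12 markers of cumulus cells summed to 22.7 and 14.4 FPKM in control and 12.9 and 7.62 FPKM in treated libraries, an order like that of the members that were lower, and their part in those results was not tested. Amhr2 gave 21.5, 8.57, 5.57 and 4.45 FPKM of these sums and set their order. The other 11 markers did not follow that order. Their sum was lowest in DMSO replicate 1 and highest, at 7.31 FPKM, in treated replicate 1. Amh, Foxl2, Ptx3 and Inhba were at 0 in every library. The 6 sperm markers summed to between 2.70 and 16.1 FPKM with Prm1 and Tnp2 at 0 in every library. Myc itself had a log2FC of -1.64 and Max one of 1.07, by edgeR's quasi-likelihood test with adjusted p-values of 0.333 and 0.334.

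The upstream sequences of the 4 members that were lowest in DMSO replicate 1 and higher in both treated libraries are shown because NRF2 and MYC act through short motifs in such regions. Gpx1, also higher in both treated libraries but lowest in DMSO replicate 2, is not printed, and its window holds neither motif. RefSeq gave promoter windows for 8 of the 10 members (those of Gclc and Gsr were not analysed here), all on GRCm38.p6, the build of the mm10 files. Windows ran from 250 bases before to 50 bases after a transcription start, 13 in all since Gpx4 and Txnrd1 have several. Both strands were searched for CACGTG, the E-box bound by MYC and MAX, and for TGACNNNGC, the core of the antioxidant response element bound by NRF2. The E-box was found in 0 of the 13 windows and in 7.15% of 32817 windows of all genes. The antioxidant core was found in 3 of the 13 windows, in G6pdx, Gclm and Txnrd1, and in 12.4% of the windows of all genes. The 250 bases before the start are printed 5′ to 3′ along the gene, in lower case, with the antioxidant core in capitals. They lie at chrX:74428881-74429130 (minus strand) for G6pdx, chr3:122245307-122245556 (plus strand) for Gclm, chr8:107403206-107403455 (minus strand) for Nqo1 and chr3:50443614-50443863 (minus strand) for Slc7a11.
G6pdx: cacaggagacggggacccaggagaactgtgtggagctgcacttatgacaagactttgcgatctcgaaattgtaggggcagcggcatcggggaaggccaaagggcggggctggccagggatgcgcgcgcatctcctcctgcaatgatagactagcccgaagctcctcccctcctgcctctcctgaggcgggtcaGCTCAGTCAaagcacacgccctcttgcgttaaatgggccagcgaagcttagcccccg
Gclm: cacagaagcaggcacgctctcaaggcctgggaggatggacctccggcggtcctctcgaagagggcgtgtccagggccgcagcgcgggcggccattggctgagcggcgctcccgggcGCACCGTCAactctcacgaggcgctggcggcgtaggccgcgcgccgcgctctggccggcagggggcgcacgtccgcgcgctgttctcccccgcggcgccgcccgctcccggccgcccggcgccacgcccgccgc
Nqo1: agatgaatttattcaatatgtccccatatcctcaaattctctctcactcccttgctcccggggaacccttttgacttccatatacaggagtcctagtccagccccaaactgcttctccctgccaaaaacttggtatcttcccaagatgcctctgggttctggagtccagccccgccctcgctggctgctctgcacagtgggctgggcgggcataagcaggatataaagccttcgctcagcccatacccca
Slc7a11: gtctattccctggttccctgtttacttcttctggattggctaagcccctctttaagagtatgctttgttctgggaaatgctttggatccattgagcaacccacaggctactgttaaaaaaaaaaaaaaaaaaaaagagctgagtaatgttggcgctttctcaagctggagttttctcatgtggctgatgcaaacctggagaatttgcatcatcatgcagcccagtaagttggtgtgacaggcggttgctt
The match in G6pdx spans positions -57 to -49 from the start and the one in Gclm positions -134 to -126, both on the strand opposite to the gene. The Slc7a11 window belongs to a start inside the annotated span of that gene. Nqo1 and Slc7a11 hold neither motif in these windows. A match of this kind is only a match of letters, and no binding was measured.

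A second feature of sequence sets 3 members apart from the other 7. GPX1, GPX4 and TXNRD1 are selenoproteins, in which a TGA codon inside the reading frame is read as selenocysteine, the reactive residue of the enzyme. The codon was read from the GENCODE M21 annotation on GRCm38 for the longest complete coding sequence of each gene. It is codon 47 of 201 in Gpx1 (chr9:108339439-108339465, plus strand), codon 129 of 253 in Gpx4 (chr10:80054725-80054751, plus strand) and codon 612 of 613, the last but 1, in Txnrd1 (chr10:82896025-82896042, plus strand). The surrounding coding bases are printed with that TGA in capitals.
Gpx1: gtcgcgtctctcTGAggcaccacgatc
Gpx4: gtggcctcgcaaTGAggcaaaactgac
Txnrd1: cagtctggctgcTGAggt
The annotation marks no such codon in the other 7 genes, among them Gsr, whose product does for glutathione what TXNRD1 does for thioredoxin. With all 4 libraries these 3 genes had the log2FC values nearest to 0 among the members (0.45 for Gpx1, -0.50 for Gpx4 and 0.20 for Txnrd1), an order that was lost without DMSO replicate 1, when Gpx1 was at 0.71 and Gclm at 0.29.

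Per transcript length, the members spanned a wide range. In control embryos Gpx4 was the highest at 227 ± 15.1 FPKM (SD, n = 2), followed by Gpx1 at 199 ± 20.0 FPKM (SD, n = 2), and the ranges of these 2 did not overlap. G6pdx, Gss, Gclc, Nqo1, Gclm, Gsr and Slc7a11 followed in that order, from 37.7 down to 2.70 FPKM, and each overlapped its neighbour. Txnrd1 was the lowest at 1.46 ± 0.134 FPKM (SD, n = 2). In treated embryos Gpx1 stood first at 301 ± 18.5 FPKM (SD, n = 2), and Gpx4 at 179 ± 2.26 FPKM (SD, n = 2) and G6pdx at 110 ± 4.39 FPKM (SD, n = 2) followed without overlap. Nqo1, Gclm, Gss and Slc7a11 came next, from 14.3 to 5.16 FPKM, of which only Gclm and Gss overlapped. Gclc moved from the fifth place in control embryos to the eighth in treated embryos, at 2.35 ± 0.0990 FPKM (SD, n = 2), above Txnrd1 and Gsr. The ranges of Txnrd1 and Gsr overlapped, and that of Gclc (2.28 to 2.42 FPKM) overlapped that of Gsr (1.09 to 2.36 FPKM).

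**Figure D1:**
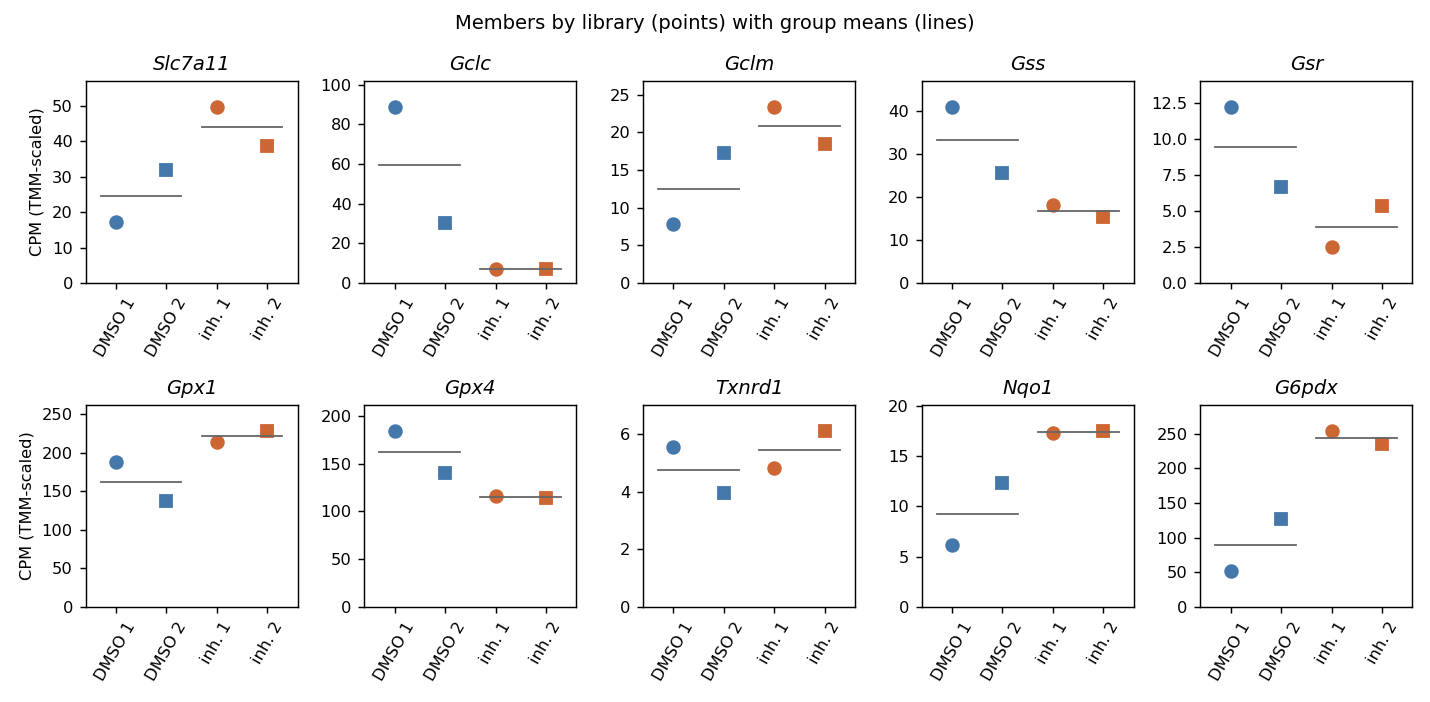
CPM of each of the 10 members (vertical axes from 0, each gene with its own scale) in the 2 DMSO libraries (blue) and the 2 inhibitor-treated libraries (inh., orange), with circles for replicate 1, squares for replicate 2 and lines for group means. The groups overlap for Txnrd1 alone, and DMSO replicate 2 lies between DMSO replicate 1 and the treated libraries for 8 genes.

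The groups did not overlap in CPM for 9 of the 10 members, against 57.3% of the 13549 tested genes. In 5 of them (Slc7a11, Gclm, Gpx1, Nqo1 and G6pdx) both treated libraries were above both control libraries, against 28.9% of tested genes, and in 4 (Gclc, Gss, Gsr and Gpx4) both were below, against 28.3%. For 8 members DMSO replicate 2 lay between DMSO replicate 1 and the treated libraries, against 47.4% of tested genes. All 10 members passed the filter on low counts, and their counts per library lay between 54 (Gsr in treated replicate 1) and 5476 (G6pdx in treated replicate 1). By edgeR's quasi-likelihood test at an adjusted p under 0.05 and |log2FC| > 1, 0 members and 0 of all tested genes were called in either direction. At an unadjusted p under 0.05 it gave 1 member higher, G6pdx, against 4.72% of genes, and 1 lower, Gclc, against 10.1%. DESeq2 with transcript lengths called these 2 genes as well. Of the 18208 genes with a count, a wider set than edgeR tested, it called 0.456% higher and 2.36% lower. As these differences were known when the genes were chosen, nothing is read from the counts.

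Cystine import was represented by Slc7a11 (chr3:50364936-50499087, minus strand). It had 17.3 and 31.9 CPM in control embryos and 49.6 and 38.5 CPM in treated embryos. Both treated libraries were higher, and the nearest pair of libraries from the 2 groups was DMSO replicate 2 and treated replicate 2. The log2FC was 0.84 (standard error 0.46) and 0.48 without DMSO replicate 1. Slc3a2, which encodes the heavy chain that carries SLC7A11 to the membrane, had 50.9 and 105 CPM in control and 164 and 114 CPM in treated embryos, with no overlap (log2FC 0.84, edgeR adjusted p = 0.398). It was chosen for this role after its values were seen.

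The first step of glutathione synthesis showed its 2 subunits on opposite sides. Gclc, the catalytic subunit, spans chr9:77754535-77794489 (plus strand). It had 88.6 and 30.2 CPM in control embryos and 6.91 and 7.20 CPM in treated embryos. The treated replicates were nearly equal and the control replicates differed 2.94-fold, yet the lower control was still well above both treated libraries. The mean was 8.42-fold higher in control embryos, with a log2FC of -3.07 (standard error 0.60), and leaving out DMSO replicate 1 gave -2.08, leaving out DMSO replicate 2 -3.65. An absolute log2FC of at least this size was found in 2.55% of tested genes. Nothing is read from this share, as Gclc was chosen with its difference known. Gclm, the modifier subunit, spans chr3:122245487-122267215 (plus strand). It had 7.78 and 17.3 CPM in control embryos and 23.3 and 18.5 CPM in treated embryos. DMSO replicate 2 and treated replicate 2 were close together, and only DMSO replicate 1 was clearly low. The log2FC was 0.74 (standard error 0.54) and 0.29 without DMSO replicate 1.

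The ratio of the 2 subunits within a library does not depend on how libraries are scaled. Gclc over Gclm, as FPKM, was 6.48 in DMSO replicate 1 and 0.993 in DMSO replicate 2. It was 0.169 and 0.221 in the treated replicates. The catalytic transcript was thus in excess in 1 control library, level with the modifier in the other, and in the minority in both treated libraries. The fold between the control replicates was larger than the fold from DMSO replicate 2 to either treated replicate.

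Gss, which adds glycine in the last step, spans chr2:155563181-155592810 (minus strand). It had 40.9 and 25.5 CPM in control embryos and 18.2 and 15.4 CPM in treated embryos. Both treated libraries were lower, by less than the step between the control replicates in the case of the nearest pair. The log2FC was -0.98 (standard error 0.45) and -0.59 without DMSO replicate 1. Gclc over Gss in FPKM went from 1.16 and 0.633 in control to 0.193 and 0.239 in treated libraries, so that Gclc was lower relative to the enzyme that follows it as well.

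**Figure D2:**
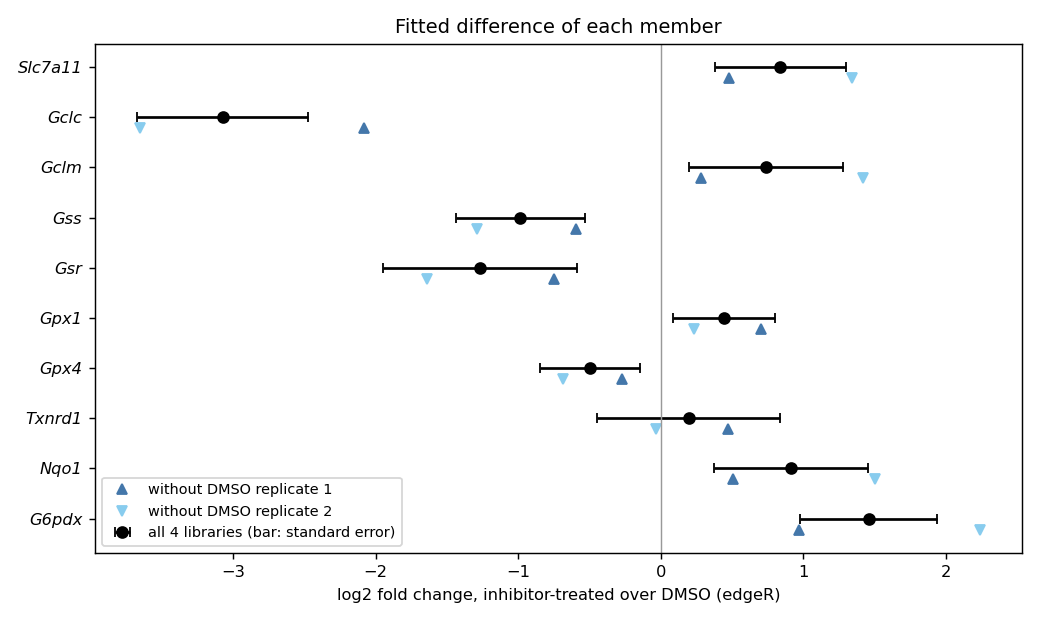
Fitted log2 fold change of inhibitor-treated over DMSO embryos for each member (horizontal axis), with all 4 libraries (black, bar for the standard error), without DMSO replicate 1 (dark triangles) and without DMSO replicate 2 (light triangles). Without DMSO replicate 1 the value is nearer to 0 for 8 members, and farther for Gpx1 and Txnrd1.

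Gsr, glutathione reductase, spans chr8:33653238-33698162 (plus strand). It had 12.2 and 6.67 CPM in control embryos and 2.50 and 5.34 CPM in treated embryos. The treated replicates differed from each other by over 2-fold, the only member for which they did, and the higher of them came close to DMSO replicate 2. The log2FC was -1.27 (standard error 0.68), and it moved to -0.75 when DMSO replicate 1 was left out, to -0.78 without treated replicate 1 and to -1.91 without treated replicate 2.

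The peroxidases were the most abundant members. Gpx1, which removes hydrogen peroxide in the cytosol and mitochondria, spans chr9:108339080-108340342 (plus strand). It had 188 and 137 CPM in control embryos and 214 and 228 CPM in treated embryos. Here DMSO replicate 1 was the nearer of the control libraries to the treated ones. The log2FC was 0.45 (standard error 0.36) and 0.71 without DMSO replicate 1. Gpx4, which reduces lipid peroxides in membranes and guards against ferroptosis, spans chr10:80047166-80056439 (plus strand). It had 184 and 140 CPM in control embryos and 116 and 114 CPM in treated embryos. The treated replicates were nearly the same and both were below the controls, with a log2FC of -0.50 (standard error 0.35) and of -0.27 without DMSO replicate 1. Gpx1 over Gpx4 in FPKM was 0.898 and 0.856 in control libraries and 1.62 and 1.74 in treated libraries. Of the ratios examined it was the one with the closest control replicates. Gpx4 was the more abundant peroxidase transcript in both control libraries and Gpx1 in both treated libraries.

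Txnrd1, cytosolic thioredoxin reductase, spans chr10:82833951-82897724 (plus strand). It had 5.57 and 3.97 CPM in control embryos and 4.82 and 6.11 CPM in treated embryos, and the groups overlapped. The log2FC was 0.20 (standard error 0.64), a size that the replicate spread does not separate from 0, and it was 0.48 without DMSO replicate 1 and turned to -0.030 without DMSO replicate 2. Gsr over Txnrd1 in FPKM was 2.87 and 2.13 in control libraries and 0.661 and 1.11 in treated libraries. Txnrd1 contains Eid3 within its span, but the exons of the pair share 0 bases.

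Nqo1, a quinone reductase much used as a marker of NRF2 activity, spans chr8:107388225-107403205 (minus strand). It had 6.11 and 12.3 CPM in control embryos and 17.3 and 17.5 CPM in treated embryos. The treated replicates agreed closely, and the step from DMSO replicate 2 to them was smaller than the 2.02-fold step between the control replicates. The log2FC was 0.91 (standard error 0.54) and 0.51 without DMSO replicate 1.

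The gene for the first NADPH-yielding enzyme of the pentose phosphate pathway, G6pdx, spans chrX:74409483-74428880 (minus strand). Its level was 51.6 and 126 CPM in control embryos and 254 and 235 CPM in treated embryos. Both treated libraries were about level and above the higher control, while the control replicates differed 2.45-fold. The mean was 2.75-fold higher in treated embryos, with a log2FC of 1.46 (standard error 0.48), and leaving out DMSO replicate 1 gave 0.97, leaving out DMSO replicate 2 gave 2.24. G6pd2, a retrogene copy of G6pdx, had 0 counts in every library. On the opposite strand, Ikbkg shares 418 of the 3080 exonic bases of G6pdx (13.6%), and no source used here states that the libraries mark strand. Ikbkg had 9.22 and 3.18 CPM in control and 2.83 and 2.48 CPM in treated embryos, with its highest value in the library where G6pdx was lowest.

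G6pdx and Gclc together gave the widest divergence among the members. G6pdx over Gclc in FPKM was 0.785 in DMSO replicate 1, 5.64 in DMSO replicate 2, and 49.5 and 44.1 in the treated replicates. The enzyme that follows G6PDX in the pathway and also yields NADPH is encoded by Pgd, which was on the other side, with 32.9 and 19.6 CPM in control and 11.4 and 9.92 CPM in treated embryos (log2FC -1.30, edgeR unadjusted p = 0.0289, adjusted p = 0.333). G6pdx over Pgd in FPKM was 1.30 and 5.36 in control libraries and 18.6 and 19.7 in treated libraries. Pgd was chosen for this comparison after its values were seen.

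**Figure D3:**
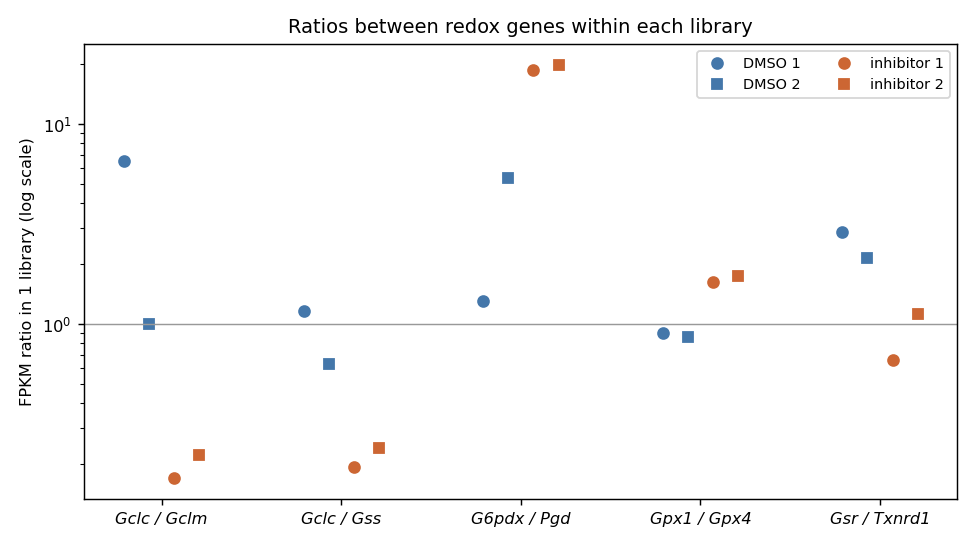
FPKM of 1 gene over that of another in the same library (vertical axis, log scale) for 5 pairs, in DMSO (blue) and inhibitor-treated (orange) libraries, circles for replicate 1 and squares for replicate 2. Gclc over Gclm goes from 6.48 and 0.993 to 0.169 and 0.221, and Gpx1 over Gpx4 is below 1 in both control and above 1 in both treated libraries.

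Around the members, 115 further gene symbols of the same pathways were written down in 8 lists by role, of which 114 were listed and 88 tested. The symbol not listed, Selenop, names the same gene as Sepp1, which was listed. By edgeR 0 of the 88 had an adjusted p under 0.05. At an unadjusted p under 0.05, 5 were higher and 6 were lower in treated embryos (12.5% in all, against 14.9% of all tested genes). DESeq2 with transcript lengths called 2, both lower. Of the 18208 genes with a count, a wider set, it called 0.456% higher and 2.36% lower, and nothing is read from the 2. Among the 5 higher by edgeR, Cat had counts in the treated libraries alone. Cat and Sepp1 passed the filter on low counts only through those libraries and could only come out higher. The median log2FC of the 88 genes was 0.18, against 0.043 for all tested genes. The groups did not overlap for 32 higher and 18 lower genes (36.4% and 20.5%, against 28.9% and 28.3% of all tested genes). As a background for the lists below, 51.5% of all tested genes had a log2FC above 0 and 14.9% an unadjusted p under 0.05.

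The 2 genes called by DESeq2, Prdx3 and Glrx2, act in mitochondria. Prdx3, a mitochondrial peroxiredoxin, had 133 and 41.5 CPM in control embryos and 10.8 and 21.7 CPM in treated embryos (log2FC -2.43, adjusted p = 0.333 by edgeR and 0.0075 by DESeq2). Glrx2, a mitochondrial glutaredoxin, had 52.3 and 24.6 CPM in control and 6.17 and 9.83 CPM in treated embryos (log2FC -2.26, adjusted p = 0.333 by edgeR and 0.00928 by DESeq2). Among the genes of the role lists, which were the only ones ranked, these 2 were the nearest to Gclc in profile. The likeness was measured over the 4 libraries as the root mean square difference of log2 CPM centred on each gene's mean, which was 0.43 for Glrx2 and 0.44 for Prdx3, followed by 0.64 for Idh2, mitochondrial isocitrate dehydrogenase. Nearest to G6pdx among the same genes were Gstm5, a glutathione transferase, at 0.083, Idh1, the cytosolic isocitrate dehydrogenase, at 0.20 and Prdx2, a cytosolic peroxiredoxin, at 0.24. With 4 libraries, one of which stands apart, such likeness is a description. It is measured on the same differences between libraries as the calls, so it adds no support to them. Not every mitochondrial gene of the lists was lower, nor every cytosolic one higher. Txn2, a mitochondrial thioredoxin, had a log2FC of 0.94, and the cytosolic Pgd one of -1.30 (edgeR adjusted p = 0.333 for both). Both were chosen here after their values were seen.

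Idh1 and Idh2, which make NADPH in different compartments, thus stood on opposite sides. Idh1 had 4.19 and 7.52 CPM in control and 18.3 and 19.8 CPM in treated embryos (log2FC 1.70, edgeR adjusted p = 0.333), and Idh2 16.0 and 10.5 CPM against 3.25 and 4.15 CPM (log2FC -1.84, edgeR adjusted p = 0.333). In the NADPH supply list, 5 of 12 tested genes (41.7%) had a log2FC above 0, 1 gene (Idh1) was higher and 2 (Idh2 and Pgd) lower at an unadjusted p under 0.05, and its most abundant genes were Taldo1 of the pentose phosphate pathway (log2FC -0.46) and Me1, cytosolic malic enzyme (0.58), with edgeR adjusted p-values of 0.54 and 0.469.

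The list of glutathione transferases, which attach glutathione to reactive compounds, also holds Hagh, Glo1 and Esd, which are not transferases. In this list 13 of 17 tested genes (76.5%, against 51.5% of all) had a log2FC above 0, with a median of 0.93. Of these genes 1, Gstm5, had an unadjusted p under 0.05. Hagh and Glo1 were above 0 and Esd below. Mgst1, Gstm6 and Gstk1 were above 0 but had no count in DMSO replicate 1. The names other than Gstm5 were given after their values were seen. Gstm5, with the highest FPKM of this list, had 112 and 294 CPM in control and 547 and 466 CPM in treated embryos (log2FC 1.32, edgeR adjusted p = 0.333), and Mgst3, a microsomal transferase, had a log2FC of 1.04 (edgeR adjusted p = 0.338). Since Gstm genes have similar sequences and only uniquely mapped reads were kept, their values are uncertain. In the list of glutathione synthesis and breakdown, 5 of 8 tested genes (62.5%) had a log2FC above 0 and 0 an unadjusted p under 0.05. Of the 5, Chac1 had 0 and 0.159 CPM in control and 0.603 and 1.24 CPM in treated libraries. It passed the filter on low counts only through the treated libraries and could only be above 0. Chac1 was named after its values were seen. The breakdown enzyme Ggct had a log2FC of 0.79 and Cth, which makes cysteine, one of -0.86 (edgeR adjusted p-values 0.373 and 0.419). Of the other peroxidases, of which 0 of 3 tested had an unadjusted p under 0.05, Gpx3 had a log2FC of 0.96 and Gpx7 one of -0.40 (0.395 and 0.725), and both were far below Gpx1 and Gpx4, with mean FPKM of 19.6 and 11.6.

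Peroxiredoxins remove peroxides with electrons from thioredoxin, and 2 of them had the highest FPKM of the members and lists. Prdx2 had a mean of 2750 FPKM and Prdx1 of 1510 FPKM over the 4 libraries, against 250.2 for Gpx1. Prdx2 had 728 and 1604 CPM in control and 2316 and 2454 CPM in treated embryos (log2FC 1.03, edgeR adjusted p = 0.35). Prdx1 lay between 1614 and 1951 CPM in all libraries, with overlapping groups (log2FC -0.096, adjusted p = 0.916). Among 18 tested genes of the thioredoxin, peroxiredoxin and glutaredoxin list, 1 was higher (Txn2) and 3 were lower (Prdx3, Glrx2 and Glrx3) at an unadjusted p under 0.05, names given after their values were seen.

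Of the enzymes that remove superoxide and peroxide or break down haem, Hmox2, the constitutive haem oxygenase, had 395 and 294 CPM in control and 148 and 152 CPM in treated embryos (log2FC -1.20, edgeR adjusted p = 0.333), and Sod1 a log2FC of 0.32 (adjusted p = 0.736). In that list 1 of 9 tested genes was higher (Cat) and 1 lower (Hmox2) at an unadjusted p under 0.05. Cat passed the filter on low counts only through the treated libraries, so it could only come out higher. Its edgeR adjusted p was 0.333. Catalase (Cat) had no count in either control library and 0.835 and 3.96 CPM in the treated ones. Against a floor of 3 counts per library, the mean of the treated libraries was at least 14.2-fold higher. For treated replicate 1 alone, without treated replicate 2, it was at least 4.93-fold. These bounds cover counting error only and not the spread between libraries. Cat was singled out after its values were seen.

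In the NRF2 and KEAP1 list, 0 of 12 tested genes had an unadjusted p under 0.05, and its most abundant genes were Cul3 and Rbx1, parts of the ligase that marks NRF2 for destruction, with a log2FC of -0.87 and -0.37 (edgeR adjusted p = 0.35 and 0.618). Nfe2l2, which encodes NRF2 and was chosen for its role after its values were seen, had 19.4 and 22.9 CPM in control and 39.8 and 32.2 CPM in treated embryos (log2FC 0.77, edgeR adjusted p = 0.396). In the selenoprotein synthesis list, 7 of 9 tested genes (77.8%) had a log2FC above 0. Of these genes 1, the selenium carrier Sepp1, had an unadjusted p under 0.05 and was named after its values were seen. Sepp1 had only 0.240 and 0.424 CPM in control and 2.83 and 8.01 CPM in treated embryos. Like Cat, it passed the filter on low counts only through the treated libraries, so it could only come out higher. The most abundant genes of this list were Trnau1ap and Sephs2, with a log2FC of 0.52 and 0.24 (edgeR adjusted p = 0.499 and 0.766).

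**Figure D4:**
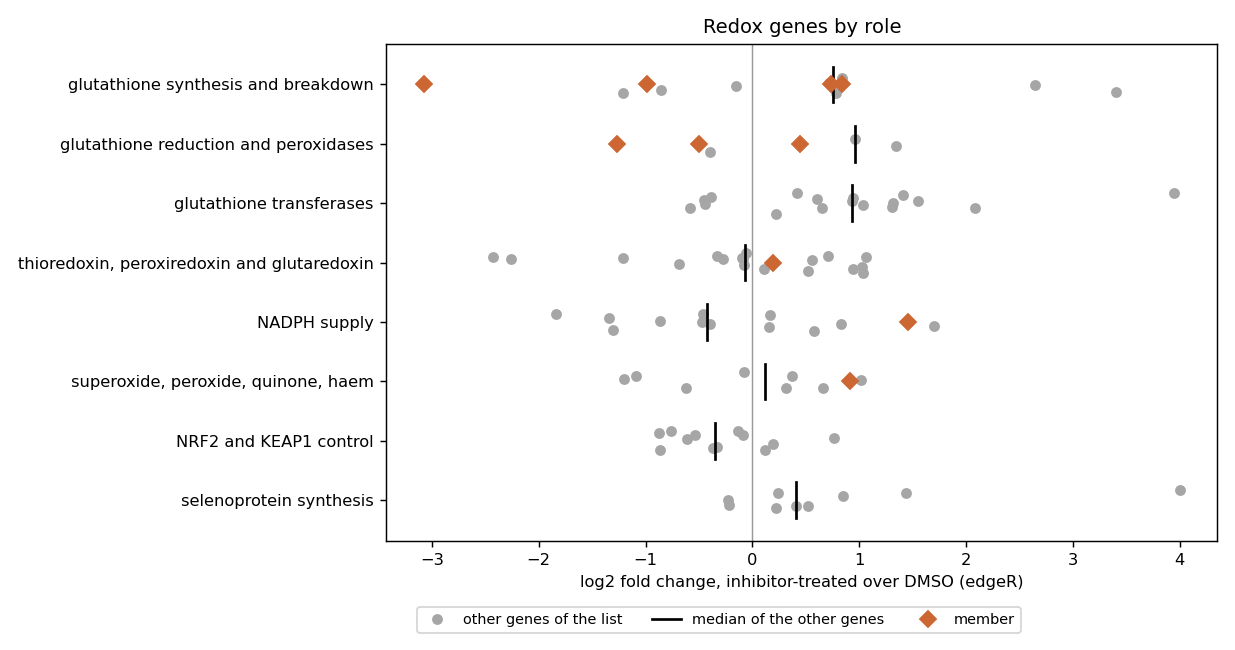
Fitted log2 fold change of inhibitor-treated over DMSO embryos (horizontal axis) for the tested genes of 8 role lists, with the 10 members as orange diamonds, other genes as grey points and the median of the plotted other genes as a black line. Catalase, without a count in control embryos, is left out. Gclc at -3.07 is the lowest of the genes shown, and G6pdx at 1.46 is second to Idh1 in the NADPH supply list.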

How the data were processed

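Each library was prepared by the authors with a SMART-Seq v4 PLUS kit and sequenced as read pairs. Read pairs were aligned to mm10 with STAR (version 2.7.10), uniquely mapped reads were kept, and genes were quantified with RSEM (version 1.3.3). The deposited expected count is RSEM's estimate of fragments per gene and is not normalized. In the deposited FPKM values, counts were divided by effective transcript length and library total. The TPM values deposited beside them gave no result here. The deposited effective lengths, in bases, entered 1 alternative.

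Expected counts were rounded, filtered with filterByExpr (minimum count 10, minimum total 15; 13549 genes), scaled with TMM factors and tested with edgeR 4.0.16 in R 4.3.3 (quasi-likelihood, robust, two-sided, Benjamini-Hochberg). Totals of 18206584 to 20718690 counts set the precision, and intervals from counts would cover counting error only. Standard errors were derived from the log2FC and its F statistic. Alternatives used DESeq2 1.42.0, limma 3.58.1 on log2(FPKM + 1) and log2(FPKM + 0.1), other scalings, no filter, a block and each library left out. The edgeR and DESeq2 fits were tested on simulated counts, where both recovered the size of the changes, missed many changed genes, and made more false calls than the nominal rate, DESeq2 more than edgeR. The limma fits were not tested so. The study calls the 2 libraries of a group biological replicates, with no parents named in the sources used here, so p-values measure the spread between these libraries. Strand use in counting is not given in the sources used here. Members and lists were chosen with earlier results of these data known. Genes named were the members, the 2 most abundant other genes of each role list, genes called by edgeR or DESeq2 with lengths, the 3 genes most like Gclc and G6pdx, genes that may share reads with a member, Myc and Max. Others are marked as chosen after their values were seen.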

Additional observations from a re-analysis of the deposited data

How the results depend on the processing

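Limits come first from the 2 libraries per group and from DMSO replicate 1. The number of genes called higher and lower was 0 and 0 by edgeR, also with limma, RLE size factors and library totals. It was 95 and 471 by DESeq2 on the same genes, 87 and 437 by DESeq2 on every gene that had a count, 83 and 429 with transcript lengths added, 165 and 479 by edgeR without the filter, and 12 and 32 with the replicate number as a block. Leaving out 1 library gave from 1 to 2148 genes higher and from 1 to 2065 lower, the largest numbers without DMSO replicate 2. The lone library of a group was then assumed to vary like the others. Genes with an unadjusted p under 0.05 numbered 2013, 1209 with limma on log2(FPKM + 0.1), and from 461 to 6166 with 1 library left out. Among the other redox genes this number was 11, 17 by DESeq2 on the same genes, 20 by DESeq2 on every gene that had a count, 20 with lengths, 20 without the filter, and from 3 to 46 with 1 library left out (46 without DMSO replicate 2, 3 without treated replicate 2), and their median log2FC was from 0.17 to 0.57. The causes were not tested, beyond the change in genes tested or libraries used that each alternative makes.

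Over the 13 alternatives, 9 members kept their direction. Txnrd1 had a log2FC of -0.030 without DMSO replicate 2 and up to 0.48 otherwise. Across all alternatives Gclc lay between -3.65 and -2.08 and G6pdx between 0.97 and 2.24. With library totals the median of all tested genes moved from 0.043 to 0.17. The replicate numbers are not shown to pair the libraries, since the deviations of same-numbered libraries had a correlation of -0.034 across genes. With the numbers as a block, 13 of the other redox genes had an unadjusted p under 0.05.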
